A study of Mus musculus with 4 samples.

Results

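Cxcl1, Cxcl2 and Cxcl5 encode chemokines that draw neutrophils, and their RNA was followed in mouse 3T3 fibroblasts through 12 h of tumour necrosis factor (TNF). The members were all probe sets that the array annotation gives to these 3 genes alone. This yielded 5 of the 45101 probe sets on the array, with 3 for Cxcl1 and 1 each for Cxcl2 and Cxcl5, and 3 of the 18193 named genes. The 3T3 cells are an immortal embryonic fibroblast line, and no genetic change to them is named in the labels. They grew for 24 h in medium with 10% serum and then stayed overnight in 0.5% serum. The basal group was harvested at that point without TNF. The other groups received TNF for 0.5, 2 or 12 h, at 10 ng/ml for 0.5 and 12 h, while the 2 h sample carries the basal protocol text and no concentration. Each group was 1 array, so no spread between replicates exists, no test was run, and no difference below could be set against replicate error.

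Neutrophil chemokines of the CXC family carry the amino acids Glu-Leu-Arg (ELR) just before their first cysteine pair, and signal through the receptors CXCR1 and CXCR2. Stromal cells make them soon after TNF or interleukin-1 binds its receptor, through NF-kB, a transcription factor that waits in the cytoplasm bound to IkB proteins. Their mRNAs are known for AU-rich stretches in the 3' end to which decay factors such as tristetraprolin bind, so that output depends on transcription and on RNA decay alike. The title of the series asks how mRNA stability orders the induction of inflammatory genes. The arrays measured RNA level, not its stability.

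The 3 genes lie in 1 block of chemokine genes on chromosome 5. In the RefSeq genes of GRCm38.p6 the order is Cxcl5, Ppbp, Pf4, Cxcl3, Cxcl15, Cxcl1 and Cxcl2, a run of 7 with no other annotated gene between them. The bases upstream of the start sites are shown for Cxcl1, Cxcl2 and Cxcl3 because they share a match to the NF-kB binding consensus, the kappaB site. The upstream bases of Cxcl5 were not analysed here. Each sequence is the 150 bases that end just before the RefSeq start site (GRCm38.p6, plus strand). Capitals mark the kappaB consensus, found on both strands so that overlapping matches join into 11 bases, and the TATA-like run ATAAAA.

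Cxcl1, chr5:90891095-90891244: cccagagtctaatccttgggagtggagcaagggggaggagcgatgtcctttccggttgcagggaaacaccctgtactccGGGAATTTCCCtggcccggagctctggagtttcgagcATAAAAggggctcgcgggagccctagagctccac

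Cxcl2, chr5:90903749-90903898: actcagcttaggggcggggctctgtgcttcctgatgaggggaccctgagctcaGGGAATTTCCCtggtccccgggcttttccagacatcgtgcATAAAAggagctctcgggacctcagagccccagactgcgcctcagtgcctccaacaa

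Cxcl3, chr5:90785951-90786100: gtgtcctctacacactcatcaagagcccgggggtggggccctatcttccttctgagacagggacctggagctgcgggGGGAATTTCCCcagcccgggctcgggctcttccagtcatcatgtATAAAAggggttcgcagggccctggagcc

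The 11 bases GGGAATTTCCC stood in all 3 windows, from position -71 in Cxcl1, -97 in Cxcl2 and -73 in Cxcl3, counted back from the start site. Between them and ATAAAA lay 26, 29 and 33 bases. Of the 32851 windows of 250 upstream bases in the RefSeq table, 14 (0.0426%) held this run on either strand. The kappaB consensus in any form was in 2382 windows (7.25%) and ATAAAA in 5576 (17.0%). Cxcl1 and Cxcl2 went further and shared 14 bases, GGGAATTTCCCTGG, and theirs were the 2 windows of the table that held them. The upstream 250 bases of Ppbp and Cxcl15 had no kappaB match. These matches describe letters in the sequence, and the runs were picked after the sequences were seen.

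The deposited values are linear signal intensities. To keep noise near background out of the ratios, any signal below 9.08 (the 30th percentile over the 4 arrays) was set to 9.08, called the floor, and "at least" marks a ratio against such a signal. A gene "rose" or "fell" only if its ratio was at least 2-fold. A higher floor at the 75th percentile (102) was applied as an alternative. Across probe sets the median signal slid from 22.1 in basal cells to 19.9 at 12 h, a median log2 ratio of -0.20, and the ratios below include that drift. In bulk RNA, fewer cells expressing a gene and less of its RNA per cell cannot be told apart. Of 10 fibroblast markers, 6 or 7 exceeded 102 on each array, with the intermediate filament gene Vim at 9091 to 10254, while Thy1, Dcn and Lum stayed at 20.7 or less. Of the 9 leukocyte markers with a probe set, 0 exceeded 102 on any array, and Ptprc, the pan-leukocyte gene, was under the floor throughout.

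Cxcl1 and Cxcl2 went up steeply within 0.5 h and then declined, Cxcl2 the faster of the pair. Cxcl5 rose less, was nearly level from 0.5 to 2 h and was lower at 12 h. Cxcl1, known as KC in the mouse, started from a signal of 151 on probe set 1419209_at, reached 3211 after 0.5 h of TNF, and then read 1278 (2 h) and 658 (12 h). All 3 TNF arrays were above basal, with the peak on the first of them. Cxcl2, also called MIP-2, read 0.676 in basal cells, which is below the floor, then 203, 42.2 and 10.6 on 1449984_at. Its signal was highest at 0.5 h, far lower at 2 h and barely over the floor at 12 h. Cxcl5, known as LIX, read 493, 1834, 1909 and 1319 on 1419728_at. It had the highest basal signal relative to its own peak, and its 0.5 h and 2 h signals were close together. Signals of different probe sets are not compared here, since each has its own binding strength.

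**Figure D1:**
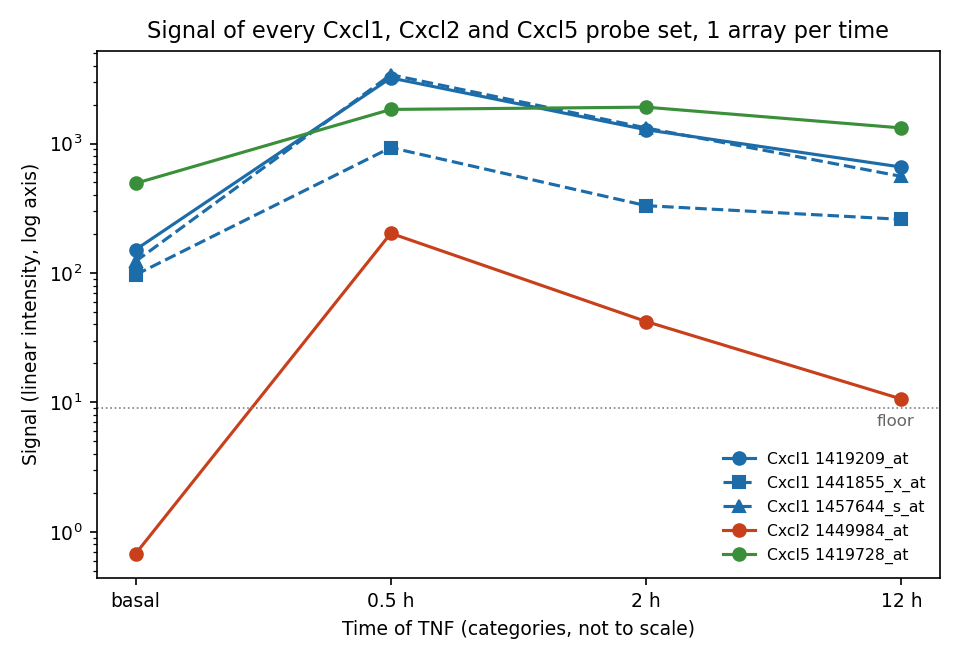
Signal of each of the 5 probe sets (log axis) in basal cells and after 0.5, 2 and 12 h of TNF, 1 array per point, with the floor of 9.08 as a dotted line; dashed lines are the further Cxcl1 probe sets. The Cxcl1 and Cxcl2 lines peak at 0.5 h, and the Cxcl5 line is nearly flat between 0.5 h (1834) and 2 h (1909).

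At 0.5 h all 3 genes had risen. Cxcl1 stood 21.2-fold above basal (log2 ratio 4.41), Cxcl2 at least 22.3-fold (4.48) and Cxcl5 3.72-fold (1.90). Of the 16269 genes analysed, 2.55% rose at this time. Ordered by ratio, Cxcl2 at its bound took place 2, Cxcl1 place 3 and Cxcl5 place 33. The heights of Cxcl1 and Cxcl2 were not ranked against each other: the 3 probe sets of Cxcl1 ran from 9.62-fold to 27.7-fold, and the log2 bound of Cxcl2 was 3.27 with the floor at the 50th percentile. With signals raised to 102, Cxcl1 and Cxcl5 still rose, against 0.328% of 7311 genes, and Cxcl2 came to 1.99-fold, just short of the rule. Probe sets of like signal scattered by a scaled median absolute deviation of 0.12 (log2) for Cxcl1 and Cxcl5. Their rises were 37.7 (Cxcl1) and 16.2 times (Cxcl5) that scatter. For Cxcl2 the scatter was 0.39 with its basal signal raised to the floor. With the deposited basal signal, its geometric mean falls among probe sets of 8 to 16, which scattered by 0.97. Its rise is therefore not given as a multiple of scatter. The scatter is a spread between probe sets on the same pair of arrays and says nothing of how a second culture would have differed.

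At 2 h Cxcl1 was 8.45-fold above basal, Cxcl2 at least 4.64-fold and Cxcl5 3.88-fold. Again all 3 met the rule, against 2.58% of genes. At the higher floor these were Cxcl1 and Cxcl5, against 0.479%. At 12 h Cxcl1 (4.35-fold) and Cxcl5 (2.68-fold) were still raised, against 2.79% of genes, or 0.616% at the higher floor. Cxcl2 was at least 1.17-fold above basal, a log2 ratio of 0.23 where probe sets of such low signal scattered by 0.97. Its place against the 2-fold rule at 12 h depended on the floor, with a log2 ratio of 1.15 with the floor at the 20th percentile and 3.97 with none. The 3 comparisons share the basal array. The series holds no untreated cells kept for the same extra hours, so TNF and added time in low serum cannot be told apart.

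The 3 genes differed in the share of their 0.5 h signal that they kept. At 2 h Cxcl2 held 20.8% of its 0.5 h signal, Cxcl1 39.8% and Cxcl5 104%. In log2 terms these are -2.26, -1.33 and 0.06, where probe sets of like signal scattered by 0.30, 0.10 and 0.10. Cxcl2 and Cxcl1 thus fell and Cxcl5 did not meet the rule in either direction. Among all genes 2.96% fell over this step. With the higher floor Cxcl1 fell, against 0.301% of genes, and Cxcl2 reached -0.99. The log2 ratio of Cxcl2 lay 0.93 below that of Cxcl1 and 2.32 below that of Cxcl5. A high reading on the 0.5 h array would enlarge both a rise and the fall that follows it, because the 2 ratios share that array.

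By 12 h the distances had widened. Cxcl2 was at 5.24% of its 0.5 h signal (log2 ratio -4.25), Cxcl1 at 20.5% (-2.29) and Cxcl5 at 71.9% (-0.48). The 2 genes that fell were Cxcl2 and Cxcl1, against 4.56% of all genes. At the higher floor it was Cxcl1 alone, against 1.52%. From 2 to 12 h Cxcl2 changed by -1.99, Cxcl1 by -0.96 and Cxcl5 by -0.53, so that only Cxcl2 met the rule, against 3.12% of genes. At the higher floor no member did, against 0.479%, since both Cxcl2 signals are then at the floor.

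For Cxcl1 and Cxcl2 the net decline per hour between arrays was greater from 0.5 to 2 h than from 2 to 12 h. Between 0.5 and 2 h Cxcl2 lost 1.51 log2 units per hour (rate -1.51) and Cxcl1 had a rate of -0.89, against 0.04 for Cxcl5. Between 2 and 12 h the rates were -0.20, -0.10 and -0.05 per hour. The early rates take 0.5 h as the start of the step. With no array between 0.5 and 2 h, a peak after 0.5 h would go unseen. The late rates average over 10 h with no array between, so a fast drop soon after 2 h followed by a plateau would look the same as a slow slide. They describe the balance of new and lost RNA, and no half-life can be read from them.

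As a share of the rise above basal, Cxcl2 kept 17.1% at 2 h and 0.795% at 12 h. These shares depend on where the basal signal is set: with the deposited value in place of the floor they were 20.5% and 4.93%. Cxcl1 kept 36.8% and 16.6%. Cxcl5 kept 106% and 61.6%. The order was the same at both times, with or without the floor.

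**Figure D2:**
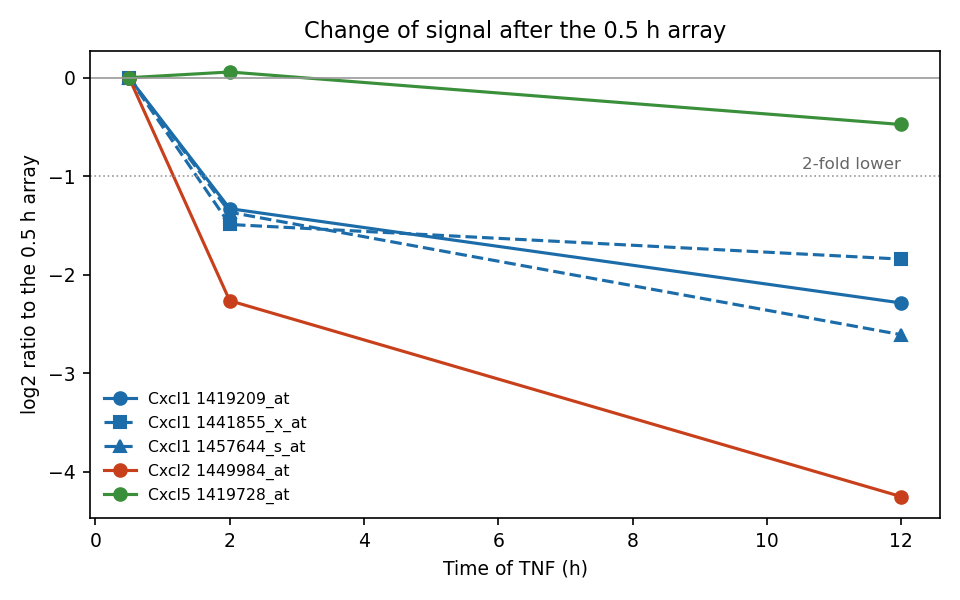
Log2 ratio of each probe set to its own 0.5 h signal at 2 and 12 h of TNF, on a linear time axis, 1 array per point; dashed lines are the further Cxcl1 probe sets. Cxcl2 drops to -2.26 and -4.25, the 3 Cxcl1 probe sets lie between it and Cxcl5, and Cxcl5 stays above the 2-fold line.

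Cxcl1 had 3 probe sets, which gave the one internal check on these orders. Probe set 1457644_s_at, whose suffix marks probes shared by several transcripts, read 123, 3401, 1320 and 557. Probe set 1441855_x_at, whose suffix warns that some probes may bind other sequences, read 96.8, 930, 331 and 260. Both peaked at 0.5 h, as 1419209_at did. Their rises at 0.5 h were 27.7-fold and 9.62-fold. The height of the Cxcl1 rise thus differed between its probe sets by more than the share kept at 2 h. At 2 h the 3 probe sets held 39.8%, 38.8% and 35.6% of the 0.5 h signal, all above the 20.8% of Cxcl2 and below the 104% of Cxcl5. At 12 h they spread from 16.4% to 27.9%, and from 2 to 12 h 1457644_s_at fell by 1.24 on the log2 scale while 1441855_x_at changed by -0.35. Probe sets of 1 gene read the same RNA and are not replicates.

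To place the members among other early genes, the genes that rose by 0.5 h at the higher floor were ordered by their change to 2 h. Of these 24 genes 16 were lower at 2 h than at 0.5 h, 8 of them at least 2-fold, with a median log2 ratio of -0.68. Over all genes at this floor 0.301% fell over the step, and the median was -0.06. The 24 were picked for a high signal on the 0.5 h array, to which these ratios are taken. That choice favours a fall, so the counts and places only describe the set. Cxcl1 had the fourth lowest ratio, after Fos (-2.37), Zfp36 (-1.92) and Ier2 (-1.37). Cxcl5 was in place 17 from the lowest. It lay between genes with a lower signal at 2 h, such as Nfkbia (-0.36), and those with a higher one, such as the monocyte chemokine genes Ccl7 (0.71) and Ccl2 (0.80). Cxcl2, at 1.99-fold, just missed this set. A wider set, added after the data were seen, took genes with a rise over the lower floor and a 0.5 h signal above 102. Among these 28 genes Fos had the lowest ratios (-2.43 at 2 h and -4.54 at 12 h), and Cxcl1 was in place 7 and place 6 from the lowest. Cxcl2, at -2.26 and -4.25, entered this set through its 0.5 h signal alone, the same signal its ratios are taken to, so its place there is a description of how it was chosen and is not read further.

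**Figure D3:**
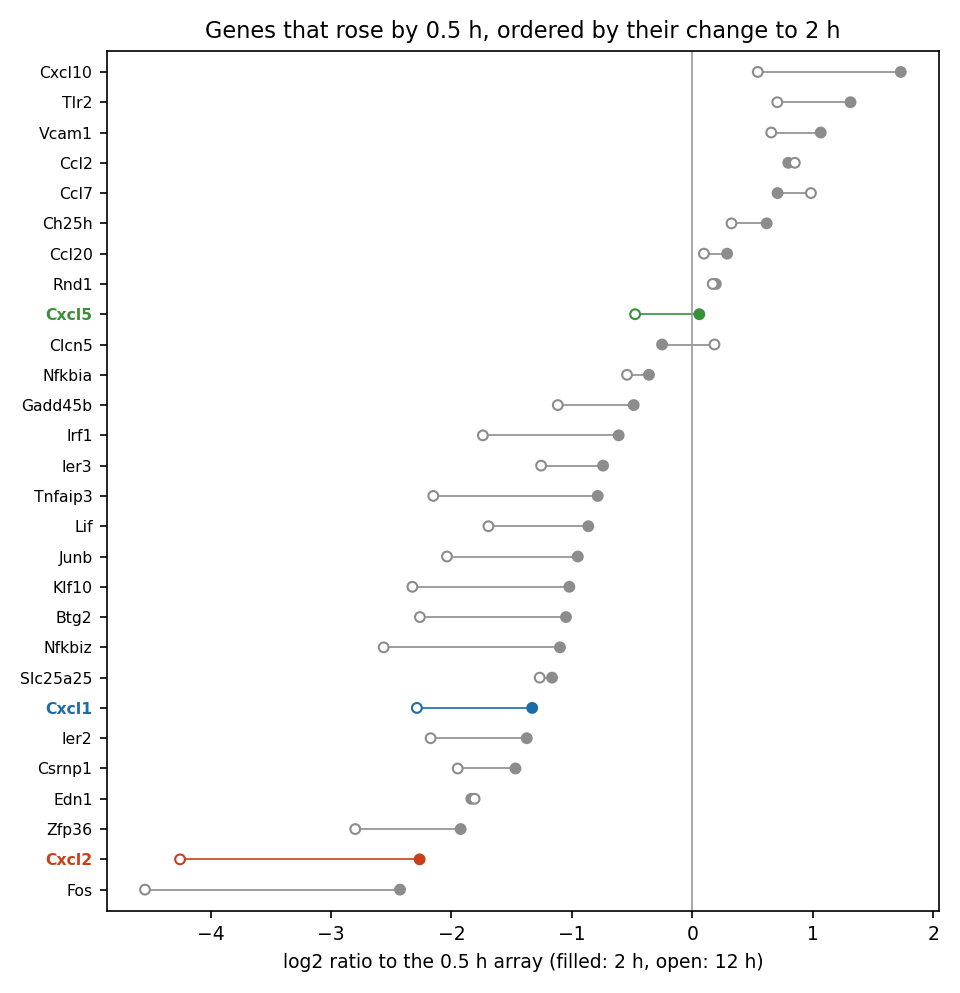
Log2 ratio to the 0.5 h array at 2 h (filled) and 12 h (open) for the 28 genes with a rise of at least 2-fold over the lower floor and a 0.5 h signal above 102, ordered by the 2 h ratio, 1 array per time. Cxcl2, which entered only through its 0.5 h signal, is at -2.26 and -4.25, Cxcl1 at -1.33 and -2.29, and Cxcl5 close to 0 at 2 h.

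Genes with the most similar time courses were sought by the distance over the 3 log2 ratios to basal among 7310 genes with a signal above 102 on some array. For Cxcl5 the closest was Nfkbia, which encodes IkB-alpha, at a distance of 0.32. Its ratios were 2.02, 1.66 and 1.48 at 0.5, 2 and 12 h, beside 1.90, 1.95 and 1.42 for Cxcl5. Among the next closest were Vcam1, an adhesion molecule gene, Lif and Irf1, at 0.88 to 0.92. For Cxcl1 the closest was Tnfaip3, which encodes the ubiquitin-editing NF-kB inhibitor A20, at 1.69. Tnfaip3 signals were 268, 2521, 1463 and 568, with the peak on the same array as Cxcl1. Ch25h, Ccl7 and Irf1 were also among the closest, at 2.23 to 2.36. Irf1 peaked at 0.5 h too, with signals of 151, 950, 621 and 284. Ch25h (26.5, 124, 191 and 156) and Ccl7 (66.1, 417, 681 and 825) were higher at 2 h than at 0.5 h, so they did not share the decline of Cxcl1. Cxcl5 was 2.84 from Cxcl1. No distance is given for Cxcl2, since its basal signal is under the floor and its ratios to basal are bounds. All distances rest on the same 4 arrays.

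With the floor, no other ELR chemokine gene met the rule against basal, but Cxcl3 was too near the floor for its course to be read. Cxcl3, a close relative of Cxcl1 and Cxcl2 that carries the same 11 upstream bases, read 13.5, 2.27, 11.6 and 10.2 on its only probe set. Its 4 signals lay within 2-fold of the floor or under it, so its level at 0.5 h is only bounded. Ppbp, a chemokine gene best known from platelets, read 54.3, 70.4, 73.4 and 52.5, log2 ratios of 0.38, 0.44 and -0.05. Cxcl15, the lung chemokine lungkine, read 44.5, 62.7, 61.5 and 88.0, with 0.98 at 12 h, just under the rule. Its other probe set read 38.7, 20.7, 34.0 and 37.0, lower than basal at 0.5 h where the first was higher. Of the 6 ELR genes, 3 rose at 0.5 h, 3 at 2 h and 2 at 12 h, against 2.55%, 2.58% and 2.79% of all genes. All of these were members, which were chosen with earlier results of these data known. The median log2 ratio of the 6 at 0.5 h was 1.20, against -0.03 over all genes. It is the midpoint between Cxcl15 (0.49 on the probe set used) and Cxcl5 (1.90), so it rests on the members. Ppbp was at 0.38, and Cxcl3 was at -0.57, a bound because its 0.5 h signal was raised to the floor.

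**Figure D4:**
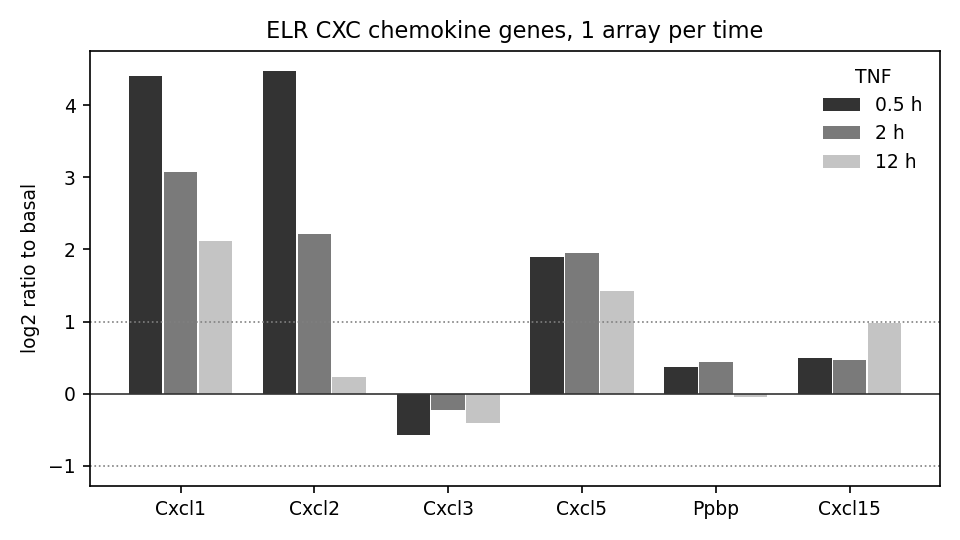
Log2 ratio to basal of the 6 ELR CXC chemokine genes at 0.5, 2 and 12 h of TNF, 1 array per bar and no error available; dotted lines mark 2-fold. Cxcl1, Cxcl2 and Cxcl5 pass 2-fold at 0.5 and 2 h, and with the floor Cxcl3, Ppbp and Cxcl15 stay within it at all 3 times. The Cxcl2 bars and the 0.5 h bar of Cxcl3 use a signal raised to the floor and are bounds.

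Among the 10 other CXC and CX3C chemokine genes, 2 rose and 1 fell at 0.5 h, 4 rose at 2 h, and 4 rose and 1 fell at 12 h. Over all genes 2.55%, 2.58% and 2.79% rose and 2.96%, 3.6% and 5.18% fell against basal at 0.5, 2 and 12 h. Cxcl10, a lymphocyte chemokine gene, read 66.6, 535, 1777 and 780, so that it rose from 0.5 to 2 h, the step over which Cxcl1 and Cxcl2 fell. Cx3cl1, which encodes the membrane-bound chemokine fractalkine, read 179, 318, 834 and 475. Cxcl12, a chemokine gene active in resting stroma, was level at 796 to 893.

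The receptors for ELR chemokines gave little signal in these cells. Cxcr2 was under the floor on all 4 arrays, with signals from 0.596 to 3.73. Ackr1, which encodes a receptor that binds chemokines without signalling, read between 24.6 and 33.0. Cxcr1 has no probe set under its name. Of 12 other genes that recruit or arm neutrophils, 10 were analysed. Of these 2 rose at 0.5 h, 3 at 2 h and 3 at 12 h, against 2.55%, 2.58% and 2.79% of all genes. Those at 0.5 h were Csf2 (3.16 to 21.1) and Tnf (3.02 to 25.3), both from under the floor. Saa3 fell at 0.5 h and Il1b at 12 h, against 2.96% and 5.18% of all genes. Icam1, the endothelial and stromal ligand of neutrophil integrins, read 19.1, 21.5, 228 and 152, low on the array where Cxcl1 and Cxcl2 were highest. Lcn2, a siderophore-binding protein of neutrophil granules that other cells also make, read 11.1 before TNF, 11.3 at 0.5 h and 158 at 12 h. Csf3, the gene of the neutrophil growth factor G-CSF, stayed between 12.3 and 21.2.

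Of 16 genes analysed on the route from the TNF receptor to NF-kB, 1 rose at 0.5 h, against 2.55% of all genes, 4 at 2 h, against 2.58%, and 3 at 12 h, against 2.79%, and 0 fell against basal. Tnfrsf1a, the main TNF receptor gene, read 529, 464, 509 and 437, and the NF-kB subunit gene Rela read 591, 685, 643 and 753. Relb, another subunit, was the gene that rose by 0.5 h, with signals of 20.2, 46.4, 138 and 110. Of 8 genes that restrain NF-kB, 4 rose at 0.5 h, 5 at 2 h and 4 at 12 h, against the same shares of all genes (2.55%, 2.58% and 2.79%). Among them Nfkbiz, whose product also acts as an NF-kB cofactor, read 132, 836, 390 and 141, a fall of at least 2-fold by 2 h as for Cxcl1 and Cxcl2.

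Of 15 regulators of mRNA decay and stability, 2 rose at 0.5 h, against 2.55% of all genes. At 2 and 12 h 0 met the rule against basal, where 2.58% and 2.79% of all genes rose and 3.6% and 5.18% fell. Zfp36, which encodes the decay factor tristetraprolin, read 95.6, 552, 145 and 79.3. It was highest on the same array as Cxcl1 and Cxcl2. It was the 1 gene of the 15 to fall from 0.5 to 2 h, with a log2 ratio of -1.92, against 2.96% of all genes. Zc3h12a, which encodes the RNase regnase-1, read 20.3, 70.5, 40.0 and 25.8. Elavl1, encoding the stabilising protein HuR, was level at 679 to 763, and Traf3ip2, encoding Act1, an adaptor known to stabilise Cxcl1 mRNA after interleukin-17, at 111 to 127. Their part in the decline of any chemokine was not tested. Of 10 AP-1 and C/EBP genes, 2 rose at 0.5 h, Fos and Junb, and 1 rose at 2 h, Cebpd. At 12 h 1 fell, Fos, and 1 rose, Fosb, from under the floor to 18.9. Over all genes 2.55%, 2.58% and 2.79% rose at 0.5, 2 and 12 h, and 5.18% fell at 12 h. Fos read 151, 526, 97.9 and 22.6, with its highest signal at 0.5 h like Cxcl1 and Cxcl2, and Cebpd read 288, 330, 1114 and 474.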

How the data were processed

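RNA (8 µg total per sample) was hybridised to Affymetrix Mouse Genome 430 2.0 arrays, per the labels' protocols, 1 array per group. Each deposited value is a linear intensity for 1 probe set. How the authors computed and scaled it is not given in sources used here. The platform annotation named 1 gene for 34945 probe sets, several for 932 and none for 9224, with control probe sets counted among the last. A gene was represented by whichever of its probe sets had the top mean log2 signal. Of 18193 genes, 16269 exceeded the floor on some array and 7311 the higher floor. Log2 ratios were taken with no further scaling, and 0 tests were run. Named genes were the members, the genes of 12 lists (112 genes), the 5 nearest patterns per member (1 of Cxcl5, and those that involve Cxcl2, are not reported here) and the early risers. The members and lists were chosen with earlier results of these data known. Ratios and calls were tested on simulated data with changes set in genes of high signal only. That does not cover signals near the floor, such as those of Cxcl2. Alternatives were other floors, median centring, quantile normalization and cyclic loess (limma 3.58.1), other probe sets, and 1.5-fold and 3-fold rules. Upstream sequences are RefSeq, GRCm38.p6. With 1 array per group, precision is limited by the number of arrays.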

Additional observations from a re-analysis of the deposited data

How the results depend on the processing

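Of 204 values recomputed under the alternatives, 191 kept their side of 2-fold (counts and places: stayed within 1.5 times). Of the rest, 3 passed 2-fold, 4 no longer did, and 6 counts or places moved. Direction was checked only for ratios of at least 2-fold in the main setting, and 0 reversed. Many of the 204 could not change. The Cxcl1 and Cxcl5 signals used all exceed 102, so no floor alters their ratios. Cxcl2 and Cxcl5 have 1 probe set each, so the mean of probe sets leaves them as they were. Cxcl1 at 0.5 h ranged from 4.16 to 4.46 (log2) and Cxcl5 from 1.90 to 1.96 over the floors, the scalings and the mean of probe sets. Taken alone, the other Cxcl1 probe sets gave 3.27 (1441855_x_at) and 4.79 (1457644_s_at), a wider span. Cxcl2 is the member that low signal limits. At the higher floor its ratios were 0.99 at 0.5 h and 0.00 at 2 h to basal, -0.99 from 0.5 to 2 h and 0.00 from 2 to 12 h, because signals under 102 are all set to 102. Its 12 h ratio to basal was 1.15 with the floor at the 20th percentile and 3.97 with no floor, against 0.23, because the basal signal of 0.676 is then less raised or not raised. Probe set 1457644_s_at of Cxcl1 gave -1.24 from 2 to 12 h. The count of members that fell from 0.5 to 2 h was 1 at the higher floor or under the 3-fold rule, and from 2 to 12 h it was 0 at the higher floor and 2 under the 1.5-fold rule. Under the 3-fold rule 1 member was raised at 12 h. The place of Cxcl1 among early risers at 2 h went from 4 of 24 to 7 of 28 in the set added after the data were seen.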
